A study of Mus musculus with 6 samples.

Results

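The 7 genes described here, Hmgcs1, Idi1, Fdps, Fdft1, Sqle, Lss and Cyp51, encode enzymes that build cholesterol. They were chosen by name, as the rows of the deposited expression table whose Ensembl identifier maps to one of these symbols, and all 7 were found among 55774 rows. None of them is an uptake gene, and the receptors that take up cholesterol are given further on only as context. Mouse blastocysts were compared after culture with extracellular vesicles from human Fallopian tube fluid. The question was whether vesicles from women with endometriosis change the embryo's transcriptome.

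The oEV-EMT group received vesicles from women with endometriosis, and the oEV-ctrl group received vesicles from women without it, who had uterine fibroids according to the sample labels and cervical intraepithelial neoplasia according to the study's methods. In both groups wild-type embryos from ICR females aged 6 to 8 weeks were kept for 75 hours in CZB, a defined embryo culture medium, and 10 blastocysts were pooled for each of 3 libraries. Embryos cultured without vesicles were not sequenced in the study, and both groups received vesicles. No source ties a library to 1 donor or 1 culture. The p-values therefore measure only the spread between these 6 libraries, which may be partly technical.

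Cholesterol is made from acetyl-CoA through mevalonate, isoprenoid diphosphates, squalene and lanosterol. HMG-CoA synthase (Hmgcs1) acts before mevalonate, isopentenyl-diphosphate isomerase (Idi1) and farnesyl diphosphate synthase (Fdps) build the isoprenoid chain, squalene synthase (Fdft1) and squalene epoxidase (Sqle) lead to the first sterol, and lanosterol synthase (Lss) and lanosterol 14-alpha-demethylase (Cyp51) make and trim the ring system. When sterols run low in the endoplasmic reticulum, the transcription factor SREBP-2 is released and switches on most of these genes through sterol regulatory elements. In the early embryo, cholesterol serves new membranes, and the isoprenoid intermediates are also used to anchor proteins to membranes.

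The promoter of Hmgcs1 is shown because this gene had the largest estimated difference between the groups, and because it held the letters of a sterol regulatory element. It covers the 250 bases before the RefSeq start site on the plus strand of GRCm38.p6, at chr13:119690101-119690350. The capitals mark the sterol regulatory element and 3 CCAAT boxes read on the opposite strand as ATTGG, the motif bound by the factor NF-Y.
Hmgcs1 promoter: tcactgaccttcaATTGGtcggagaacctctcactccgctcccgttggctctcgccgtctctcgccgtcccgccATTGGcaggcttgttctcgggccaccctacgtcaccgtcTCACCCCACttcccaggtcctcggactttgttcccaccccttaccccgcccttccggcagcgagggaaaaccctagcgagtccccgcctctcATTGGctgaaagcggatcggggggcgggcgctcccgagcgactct

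RefSeq promoters were at hand for 4 of the 7 genes, Hmgcs1, Idi1, Lss and Cyp51. The letters TCACNCCAC, searched on both strands, occurred in Hmgcs1 alone among these 4, from 137 to 129 bases before the start, and in 1.05% of 32851 promoters of the same length. Sterol regulatory elements with other letters were not searched for, so the absence of an element from Idi1, Lss or Cyp51 cannot be read from this. CCAAT on either strand occurred in all 4, with 3 copies in Hmgcs1, 2 in Idi1 and 1 each in Lss and Cyp51, and in 33.8% of all promoters. The CCAAT matches of Idi1 and Cyp51 lay before the RefSeq start but inside the gene as annotated in GENCODE. GGGGCGG, a motif of Sp1-type factors, occurred in Hmgcs1, Lss and Cyp51 and in 21% of all promoters. None of these motif matches overlapped another in the 4 promoters. A match is a description of the letters and was not tested as a binding site.

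Expression was deposited as FPKM, which counts fragments per kilobase of transcript and per 1000000 mapped fragments of a library. Levels can thus be compared between genes of different length. Differences were taken on the scale of log2(FPKM + 1), as oEV-EMT minus oEV-ctrl, with limma over the 11924 genes that reached 1 FPKM in 3 or more libraries. All 7 genes passed this filter. On that scale the median difference over all tested genes was 0.17, and the fold change of low genes is understated. The read totals were not given, and relative depth, derived from the smallest values, differed up to 2.07 times, oEV-EMT 1 being the deepest and oEV-ctrl 1 the shallowest library. Mitochondrially encoded genes held 3.93% to 4.84% of the FPKM sum in oEV-EMT and 5.96% to 7.45% in oEV-ctrl. A single unannotated entry held 15.3% to 19.0% in oEV-EMT and 19.7% to 31.5% in oEV-ctrl, with its highest share in oEV-ctrl 1.

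The 7 genes were expressed in every library, and none was significantly changed. Of the 7, 0 had an adjusted p of at most 0.05 together with a log2 fold change of 1 or more in either direction. Over all tested genes the number was also 0, or 0% (limma with Benjamini-Hochberg adjustment). The study ran DESeq2 and reported differentially expressed genes at these thresholds, so the count given here belongs to limma on FPKM alone. At an unadjusted p of at most 0.05, 0 of the 7 genes passed, against 15.4% of all tested genes. In 0 of the 7 did the groups separate without overlap, against 22.4% of all tested genes, or 18.1% with oEV-EMT above and 4.34% with oEV-EMT below. Estimates were below 0 in 5 of the 7 genes, against 29.9% of all genes. Their median was -0.16, which lay 0.33 below the median of all tested genes. Without oEV-ctrl 3 their median was 0.11, of the opposite sign. Relative to all genes it was -0.11 without oEV-ctrl 3, -0.18 without oEV-EMT 1 and -0.54 without oEV-ctrl 1.

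**Figure D1:**
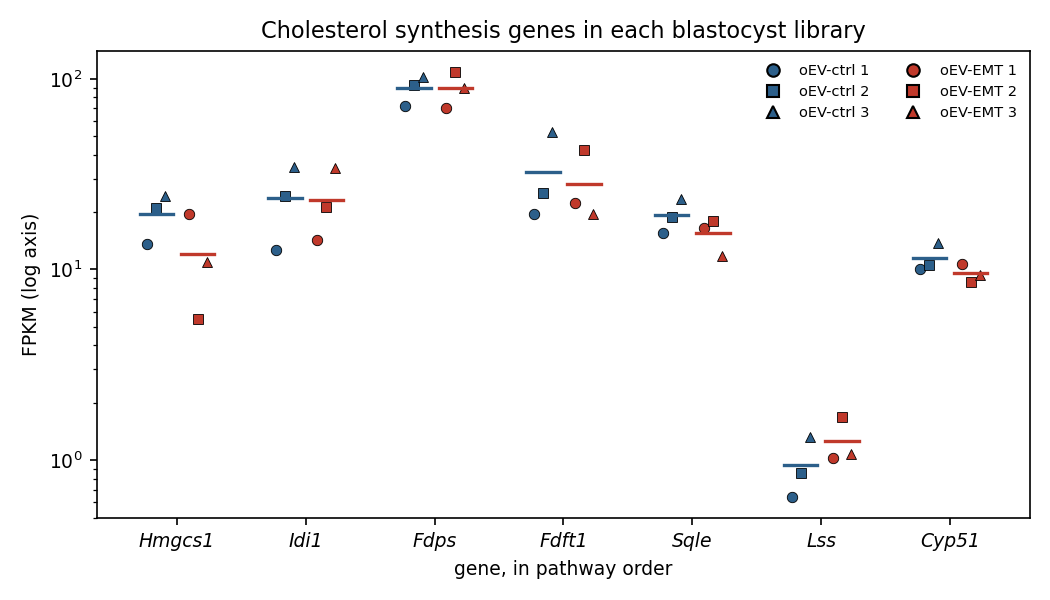
FPKM of the 7 genes (log axis) in each library, in the order of the pathway, with a horizontal bar at the mean of each group of 3 libraries. The 2 groups overlap for every gene, Fdps is the highest and Lss the lowest, and Hmgcs1 is lowest in oEV-EMT 2 at 5.51.

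Hmgcs1 (ENSMUSG00000093930, chr13:119690379-119708260, plus strand of GRCm38), which condenses acetyl-CoA with acetoacetyl-CoA, had 19.6, 5.51 and 10.9 FPKM in oEV-EMT 1, 2 and 3. In oEV-ctrl 1, 2 and 3 it had 13.5, 20.9 and 24.4 FPKM. Library oEV-EMT 2 was far below the rest, while oEV-EMT 1 lay inside the range of the controls, so the groups overlapped. The means were 12.0 ± 7.11 FPKM in oEV-EMT and 19.6 ± 5.55 FPKM in oEV-ctrl (SD, n = 3 each). The log2 fold change was -0.78 (SE 0.40, 95% interval -1.69 to 0.13), with an adjusted p of 0.386 in limma. An exact two-sided permutation test of the 6 values gave p = 0.2, and with 3 libraries against 3 this test cannot go below 0.1. Without oEV-EMT 2 the estimate was -0.36. The standard deviation of its log2 values within groups, 0.658, was larger than that of 94.9% of tested genes.

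Idi1 (ENSMUSG00000058258, chr13:8885501-8892451, plus strand), which interconverts the isoprenoid building blocks, had 14.2, 21.2 and 34.1 FPKM in oEV-EMT 1, 2 and 3 and 12.7, 24.2 and 34.6 FPKM in oEV-ctrl 1, 2 and 3. Both groups thus spanned nearly the same range, and their means were 23.2 ± 10.1 and 23.8 ± 11.0 FPKM (SD, n = 3 each). The log2 fold change of Idi1 was -0.02 (SE 0.40, 95% interval -0.92 to 0.89, limma adjusted p = 0.989). Within groups Idi1 varied more than 94.8% of tested genes, with a standard deviation of 0.654 on the log2 scale.

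Fdps (ENSMUSG00000059743, chr3:89093588-89101959, minus strand), which joins the building blocks into farnesyl diphosphate, had 70.6, 109 and 89.3 FPKM in oEV-EMT 1, 2 and 3 and 71.8, 93.0 and 103 FPKM in oEV-ctrl 1, 2 and 3. In either group library 1 was the lowest, and the means were 89.5 ± 19.0 and 89.1 ± 15.7 FPKM (SD, n = 3 each). The log2 fold change was 0.00023 with an SE of 0.23 and a 95% interval from -0.51 to 0.51, and a limma adjusted p of 1.00. Its spread within groups, 0.286 on the log2 scale, was close to the median of 0.288 over all tested genes.

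Fdft1 (ENSMUSG00000021273, chr14:63145150-63179578, minus strand), which makes squalene from farnesyl diphosphate, had 22.5, 42.5 and 19.6 FPKM in oEV-EMT 1, 2 and 3 and 19.5, 25.3 and 52.7 FPKM in oEV-ctrl 1, 2 and 3. In each group 1 library was about as high as the other two together, oEV-EMT 2 and oEV-ctrl 3. The means were 28.2 ± 12.5 and 32.5 ± 17.7 FPKM (SD, n = 3 each), the log2 fold change was -0.16 (SE 0.40, 95% interval -1.06 to 0.75), and the limma adjusted p was 0.874. Sqle (ENSMUSG00000022351, chr15:59315077-59331192, plus strand), a rate-limiting enzyme that oxidises squalene, had 16.6, 17.9 and 11.8 FPKM in oEV-EMT 1, 2 and 3. In oEV-ctrl 1, 2 and 3 Sqle had 15.5, 18.9 and 23.4 FPKM. The lowest library belonged to oEV-EMT and the highest to oEV-ctrl, while the remaining 4 were interleaved. Its means were 15.5 ± 3.22 and 19.2 ± 3.997 FPKM (SD, n = 3 each), with a difference of -0.30 on the log2 scale (SE 0.24, 95% interval -0.84 to 0.24, limma adjusted p = 0.582).

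Lss (ENSMUSG00000033105, chr10:76531588-76557138, plus strand), which closes the sterol rings, was near the detection filter, with 1.03, 1.68 and 1.08 FPKM in oEV-EMT 1, 2 and 3 and 0.644, 0.858 and 1.33 FPKM in oEV-ctrl 1, 2 and 3. Only oEV-ctrl 3 kept the groups from separating. The means were 1.26 ± 0.361 and 0.942 ± 0.349 FPKM (SD, n = 3 each), and the log2 fold change was 0.22 (SE 0.22, 95% interval -0.26 to 0.71, limma adjusted p = 0.653). With a pseudocount of 0.1 in place of 1 it was 0.41. Cyp51 (ENSMUSG00000001467, chr5:4081145-4104746, minus strand), the first enzyme to trim lanosterol, was the steadiest of the 7, with 10.7, 8.63 and 9.31 FPKM in oEV-EMT 1, 2 and 3. In oEV-ctrl 1, 2 and 3 Cyp51 had 10.0, 10.6 and 13.7 FPKM. Here oEV-EMT 1 alone lay within the control range, while the other two oEV-EMT libraries lay below every control. The means were 9.55 ± 1.06 and 11.5 ± 1.99 FPKM (SD, n = 3 each), and the log2 fold change was -0.23 (SE 0.22, 95% interval -0.72 to 0.26, limma adjusted p = 0.644). Its spread within groups, 0.188 on the log2 scale, exceeded that of only 19.6% of tested genes.

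Over all 6 libraries the mean levels were 89.3 FPKM for Fdps, 30.3 for Fdft1, 23.5 for Idi1, 17.3 for Sqle, 15.8 for Hmgcs1, 10.5 for Cyp51 and 1.10 for Lss. Fdps stood above Fdft1 in 6 of 6 libraries and Cyp51 above Lss in 6 of 6, with ranges that did not overlap (exact two-sided sign-flip permutation test, p = 0.0312 for each, 0.0938 after Benjamini-Hochberg adjustment over the 6 neighbouring pairs). This p is the smallest that 6 libraries can give. The pairs and their direction were taken from the ranking of these same values, so the p-values do not test the order independently. The 5 genes in between overlapped with their neighbours, and the 4 neighbouring pairs among them gave exact permutation p-values from 0.125 to 0.656. Lss lay above only 2.83% of tested genes in level, and Fdps above 88.7%.

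The genes were also compared by their pattern over the libraries. For this the median of each library over all tested genes was subtracted from log2(FPKM + 1), and each gene was centred on its own mean. The mean profile of the 7 genes was -0.35, -0.12 and -0.09 in oEV-EMT 1, 2 and 3 and -0.16, 0.23 and 0.48 in oEV-ctrl 1, 2 and 3. It was thus highest in oEV-ctrl 3 and lowest in oEV-EMT 1, and oEV-ctrl 1 lay inside the range of oEV-EMT. Among the deposited values, oEV-ctrl 1 was the lowest and oEV-ctrl 3 the highest control in 7 of 7 genes, against 25.4% of all tested genes. After the library medians were subtracted the count was 6 of 7, against 15% of all tested genes, Fdps being the exception, with 0.22 in oEV-ctrl 2 and 0.21 in oEV-ctrl 3. With median-of-ratios scaling 6 of 7 genes showed that order, against 16.3% of all tested genes, and with upper quartile scaling 6 of 7, against 14.1%. Library oEV-ctrl 1 was the shallowest and oEV-ctrl 3 the deepest control, at 1.82 times its depth, and whether depth has a part in this order was not tested. In the deposited values the oEV-EMT libraries had no such common order, since Hmgcs1 and Cyp51 were highest in oEV-EMT 1, Idi1 in oEV-EMT 3 and the remaining 4 genes in oEV-EMT 2. After subtraction of the library medians Cyp51 was highest in oEV-EMT 3.

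**Figure D2:**
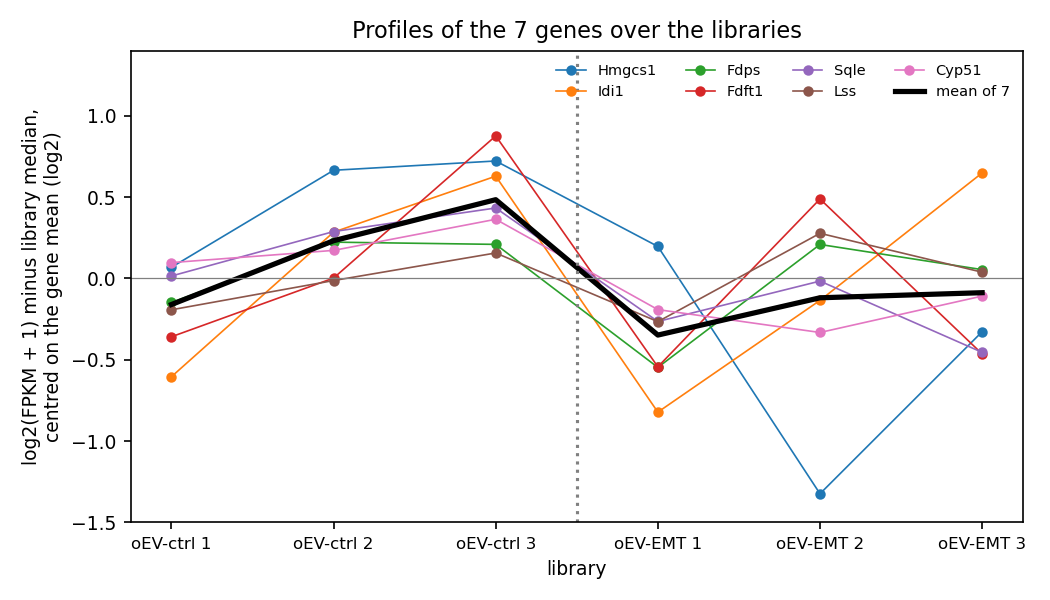
Profile of each of the 7 genes over the 6 libraries, as log2(FPKM + 1) minus the library median and centred on the gene mean, with their mean in black and a dotted line between the groups. The lines only join the values of a gene. The mean peaks at 0.48 in oEV-ctrl 3, and Hmgcs1 departs from the other genes in oEV-EMT 2, at -1.32.

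Between pairs of the 7 genes, the root mean square difference of these profiles was smallest for Fdps and Lss, at 0.155, and for Sqle and Cyp51, at 0.204. Hmgcs1 and Fdft1 were the farthest apart, at 0.866. The genes outside the group with the profile most like the mean of the 7 were Mettl21a, Fam149b, Rbbp8, Kcns3 and Ezh1, at root mean square differences of 0.0561 to 0.0998 over the 6 libraries. This likeness is a description over 6 points, in which the mean profile itself lay only 0.276 from a flat line.

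The estimates were then compared between scalings, since FPKM carry no scaling between libraries beyond their totals. With median-of-ratios scaling Hmgcs1 had a log2 fold change of -0.96 (unadjusted p = 0.0318, limma), Sqle -0.49 (unadjusted p = 0.0437) and Cyp51 -0.41 (unadjusted p = 0.0562). Hmgcs1 and Sqle were thus 2 genes at an unadjusted p of at most 0.05 and lower in oEV-EMT, against 6.42% of all tested genes under that scaling and 2.55% as deposited. With upper quartile scaling there were 3 such genes, against 6.68% of all tested genes, with -0.98 for Hmgcs1, -0.50 for Sqle and -0.43 for Cyp51. For Sqle and Cyp51 every oEV-EMT library was below every oEV-ctrl library under both scalings, against 10.2% of tested genes under median-of-ratios and 10.7% under upper quartile scaling. After adjustment over all tested genes none of the 7 passed, and the smallest limma adjusted p among them was 0.340 under median-of-ratios and 0.334 under upper quartile scaling. Genes at an unadjusted p of at most 0.05 as deposited were 1527 higher and 304 lower, but 780 higher (6.54%) and 766 lower under median-of-ratios scaling, so the direction of small differences rests on the scaling.

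**Figure D3:**
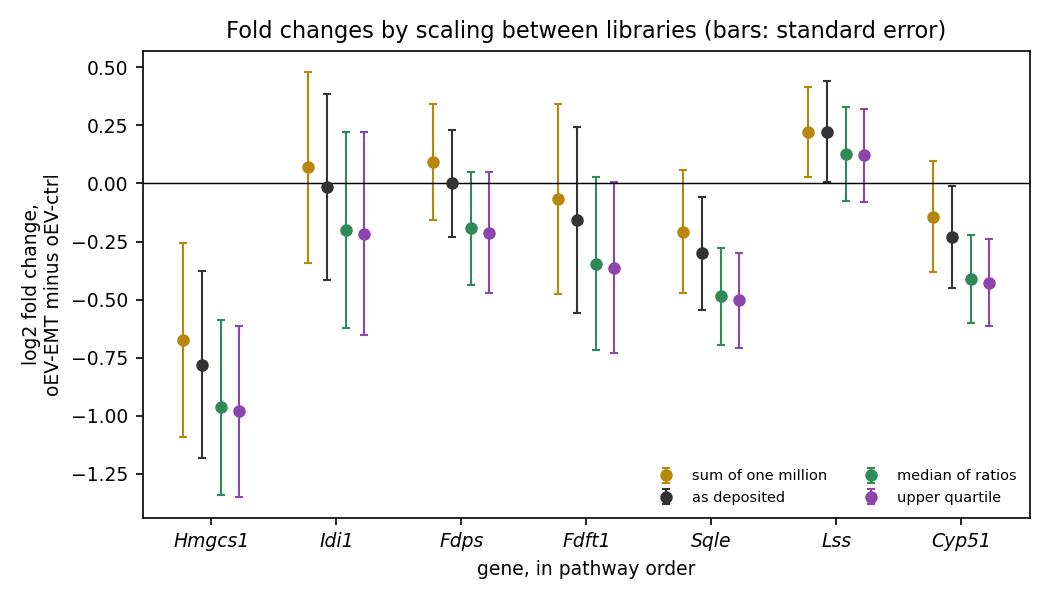
Log2 fold change of FPKM + 1 (oEV-EMT minus oEV-ctrl) of the 7 genes under 4 scalings between libraries, with bars of 1 standard error from limma. Hmgcs1, Sqle and Cyp51 are below 0 and Lss above 0 under every scaling, while Idi1 and Fdps lie on either side of 0.

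Several of the 7 genes have processed pseudogenes, which are copies of their mRNA inserted elsewhere in the genome, and reads from near-identical copies can be split between rows. Stretches of the coding sequence are shown with the matching copy, read in the gene's direction, because they show how little separates the rows. Each is the 60-base stretch with the most differing bases, so the other stretches differ no more. Coordinates are those of the whole gene or pseudogene on GRCm38, and capitals mark the bases that differ.
Idi1, coding bases 169 to 228: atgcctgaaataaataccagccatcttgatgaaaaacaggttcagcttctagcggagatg
Gm13502, chr2:53696121-53696804, minus strand: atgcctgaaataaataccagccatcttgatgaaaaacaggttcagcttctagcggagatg
Fdps, coding bases 157 to 216: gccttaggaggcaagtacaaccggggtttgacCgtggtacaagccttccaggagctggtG
Gm3571, chr10:93778660-93779719, plus strand: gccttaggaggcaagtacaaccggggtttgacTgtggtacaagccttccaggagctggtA
Fdft1, coding bases 294 to 353: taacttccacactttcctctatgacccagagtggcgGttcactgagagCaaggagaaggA
Gm6781, chr14:18531363-18532604, plus strand: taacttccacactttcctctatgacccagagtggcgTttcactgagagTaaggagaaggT

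Gm13502 was identical to Idi1 over 681 aligned bases, and 100% of its 50-base stretches also occur in Idi1, where they make up 17.7% of the stretches of the gene. It was listed at 14.8, 17.2 and 29.5 FPKM in oEV-EMT 1, 2 and 3 and at 7.16, 22.2 and 29.3 FPKM in oEV-ctrl 1, 2 and 3. The copy thus followed Idi1 from library to library, and the ratio of Idi1 to the copy lay between 0.959 and 1.77, with the highest ratio in oEV-ctrl 1. Within the shared stretches reads cannot be told apart, while the rest of Idi1 does not occur in this copy, so the split between the rows is uncertain and the part of Idi1 that this affects was not measured. Summed over the rows that share its sequence, Idi1 had a log2 fold change of 0.09 (SE 0.44, limma adjusted p = 0.943), and the Idi1 row held 53.8% of that sum.

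Gm3571 was 99.1% identical to Fdps over 1057 of the 1059 coding bases, and had 11.6 to 15.9 FPKM in oEV-EMT and 11.4 to 18.5 FPKM in oEV-ctrl. The ratio of Fdps to this copy was between 5.01 and 6.85, so the Fdps row kept most of the signal, 83.2% of the sum with 5 further rows, and the summed log2 fold change was -0.02. Gm6781 was 98.1% identical to Fdft1 but reached at most 1.12 FPKM. Fdft1 also shares 774 exon bases, 18.3% of its exons, with the lysosomal protease gene Ctsb on the opposite strand, and whether the kit kept the strand is not stated. Ctsb had 51.0, 36.3 and 28.4 FPKM in oEV-EMT 1, 2 and 3 and 18.4, 18.8 and 27.4 FPKM in oEV-ctrl 1, 2 and 3, with a log2 fold change of 0.79 and a limma adjusted p of 0.216. Each of its oEV-EMT values exceeded each of its controls, whereas those of Fdft1 did not separate, and the ratio of Fdft1 to Ctsb ranged from 0.441 to 1.92. Of the 50-base stretches, 17.2% of those of Fdft1 and 12.1% of those of Ctsb were shared. The sum of Fdft1, Ctsb and Gm6781 had a log2 fold change of 0.34 (limma adjusted p = 0.621), but only 49.7% of that sum was Fdft1, so it is no estimate for Fdft1 alone. Cyp51 shares 166 exon bases, 3.76% of its exons, with Akap9 on the opposite strand, and the antisense row Gm48342 at Hmgcs1 was listed at no more than 0.0462 FPKM.

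**Figure D4:**
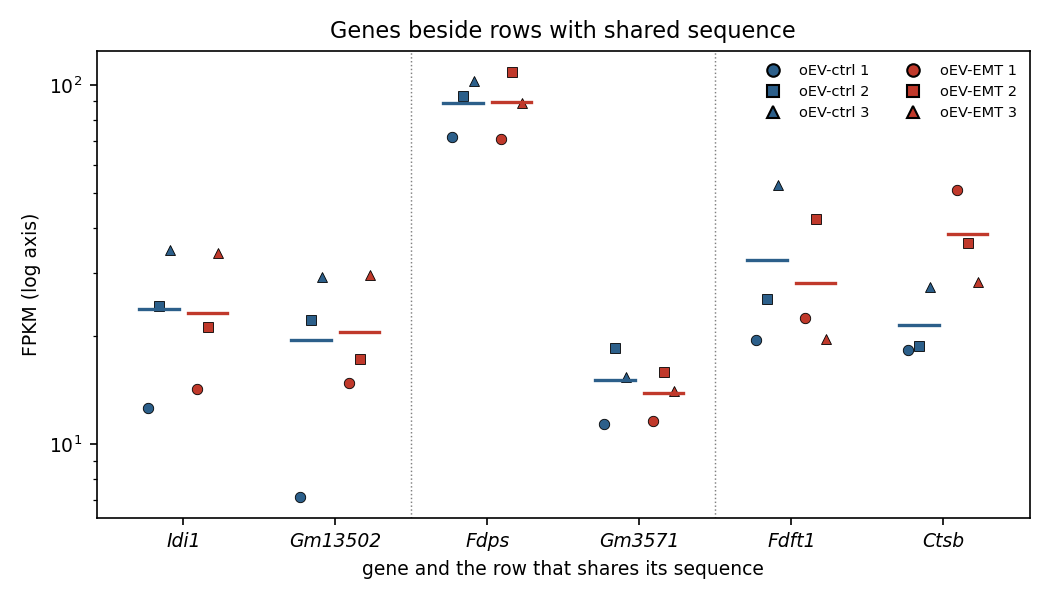
FPKM (log axis) of Idi1, Fdps and Fdft1 beside Gm13502, Gm3571 and Ctsb, the rows that share sequence with them, in each library, with a horizontal bar at the mean of each group. Gm13502 sits close to Idi1 in all 6 libraries except oEV-ctrl 1, Gm3571 lies at least 5.01 times below Fdps, and only Ctsb has all oEV-EMT libraries above all oEV-ctrl libraries.

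The rest of the pathway was read from lists of genes by role. Of 14 other cholesterol synthesis enzymes, all 14 were tested and 0 passed both thresholds. At an unadjusted p of at most 0.05, 2 were higher in oEV-EMT, against 12.8% of all tested genes, and 0 were lower, against 2.55%. With upper quartile scaling 1 was higher and 0 lower. Their median log2 fold change was 0.10, or 0.07 below that of all genes. Tm7sf2, a sterol reductase, had 3.36, 3.24 and 4.30 FPKM in oEV-EMT 1, 2 and 3 and 1.77, 1.94 and 2.45 FPKM in oEV-ctrl 1, 2 and 3, without overlap (log2 fold change 0.60, limma adjusted p = 0.240). Dhcr7, the last enzyme of one branch to cholesterol, had 6.50, 2.24 and 2.99 FPKM against 1.14, 1.45 and 2.42 FPKM, with oEV-EMT 1 far above the rest (0.81, limma adjusted p = 0.277).

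**Figure D5:**
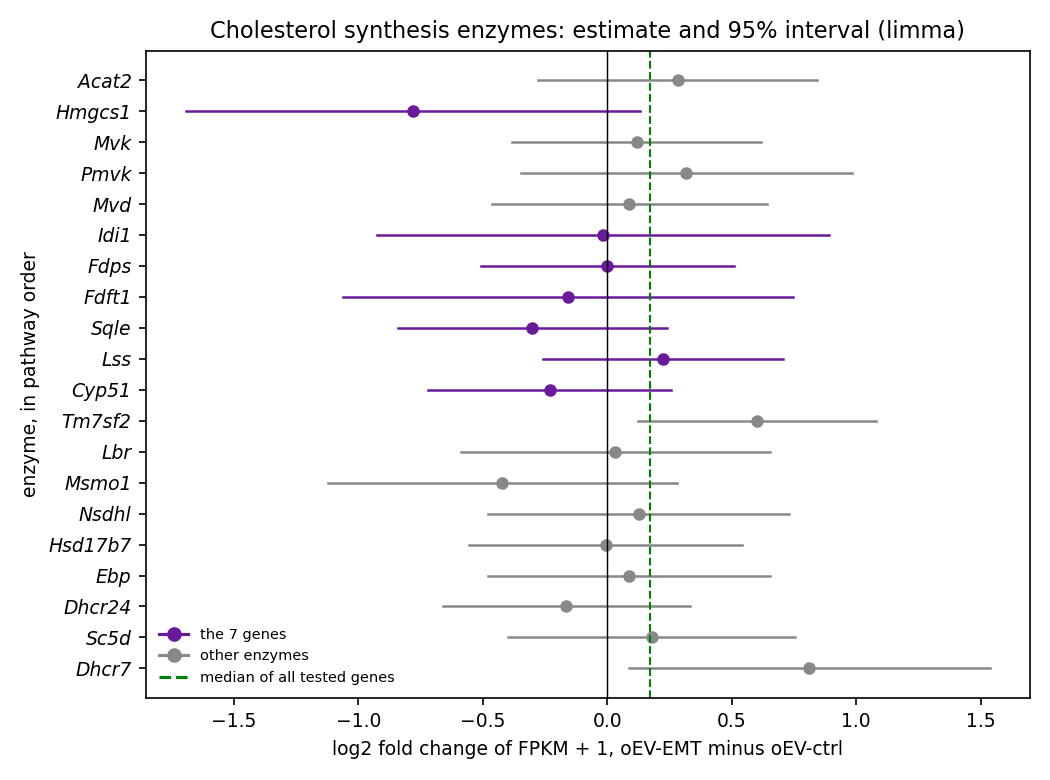
Log2 fold change of FPKM + 1 (oEV-EMT minus oEV-ctrl) with its 95% interval from limma for cholesterol synthesis enzymes in pathway order, the 7 genes in purple and the others in grey. The dashed line marks the median of all tested genes, 0.17. All 7 purple intervals include 0, and Tm7sf2 and Dhcr7 are the 2 enzymes whose interval does not.

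Among genes that sense sterols, 12 of 13 were tested, 0 passed both thresholds, and at an unadjusted p of at most 0.05, 1 was higher and 0 lower, against 12.8% and 2.55% of all tested genes. The counts turned with the scaling, to 1 higher and 1 lower with median-of-ratios and 0 higher and 1 lower with upper quartile scaling. The gene at that level as deposited was Nr1h2, a liver X receptor, with 6.67 to 7.62 FPKM in oEV-EMT and 4.29 to 4.68 FPKM in oEV-ctrl (log2 fold change 0.58, limma adjusted p = 0.237). Srebf2, which encodes SREBP-2, had a log2 fold change of -0.16 (limma adjusted p = 0.789), with 9.45 to 15.99 FPKM in oEV-EMT and 11.6 to 16.1 FPKM in oEV-ctrl. Insig1, which holds the SREBP complex in the endoplasmic reticulum and is itself a target of SREBP, had 31.9, 24.3 and 19.2 FPKM in oEV-EMT 1, 2 and 3 and 25.2, 34.8 and 33.6 FPKM in oEV-ctrl 1, 2 and 3 (log2 fold change -0.32, limma adjusted p = 0.561). The groups overlapped for both genes.

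For uptake and lysosomal export, 8 of 14 genes were tested, 0 passed both thresholds, and at an unadjusted p of at most 0.05, 3 were higher and 0 lower, namely Scarb1, Amn and Npc2, against 12.8% and 2.55% of all tested genes. With either median-of-ratios or upper quartile scaling 1 was higher and 0 lower. Scarb1, a receptor for high-density lipoprotein, had 6.43, 4.36 and 3.24 FPKM in oEV-EMT 1, 2 and 3 and 1.02, 1.55 and 3.38 FPKM in oEV-ctrl 1, 2 and 3, with oEV-ctrl 3 inside the oEV-EMT range (log2 fold change 0.97, limma adjusted p = 0.216). Amn, a partner of the endocytic receptor cubilin, had a log2 fold change of 1.08 (limma adjusted p = 0.293), and Npc2, a carrier of cholesterol in lysosomes, had 0.44 (limma adjusted p = 0.321). Npc1, which passes cholesterol out of lysosomes, had a log2 fold change of -0.21 (limma adjusted p = 0.737). Its groups overlapped, as those of all 7 synthesis genes did.

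The remaining lists had 0 genes past both thresholds. Isoprenoid branches, which draw on the same intermediates, had all 15 genes tested, of which 2 were higher and 0 lower at an unadjusted p of at most 0.05, against 12.8% and 2.55% of all tested genes, and 1 was higher with either other scaling. As deposited these were Rce1 (0.67, limma adjusted p = 0.222) and Fntb (0.50, limma adjusted p = 0.287), which both take part in processing prenylated proteins. Of 7 intracellular transport genes 4 were tested and 1, Tmem97, was higher at that level (0.54, limma adjusted p = 0.241), a call that was lost with median-of-ratios and with upper quartile scaling, where 0 were higher. None was at that level among the 4 redox partners of the sterol enzymes, all tested, the 9 of 13 fatty acid synthesis genes tested, or the 4 of 10 storage and efflux genes tested.

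The label of the tissue was checked with marker genes. Trophectoderm, epiblast and primitive endoderm markers, 7, 6 and 6 genes, were all tested, so genes of all lineages of a blastocyst were expressed. Of 8 cumulus cell markers 4 were at 0 in all libraries and 1 was tested, Amhr2, which had 1.03 to 2.07 FPKM in oEV-EMT and 0.464 to 0.737 FPKM in oEV-ctrl (log2 fold change 0.63, limma unadjusted p = 0.0147, adjusted p = 0.222), and of 5 oviduct epithelium markers none was tested and 2 were at 0. Epiblast markers summed to 81.8 to 105 FPKM in oEV-EMT and 41.0 to 62.3 FPKM in oEV-ctrl, with 3 of 6, Pou5f1, Nanog and Fgf4, higher without overlap at an unadjusted p of at most 0.05, against 18.1% of all tested genes above without overlap and 12.8% higher at that p. The other 3, Sox2, Klf2 and Esrrb, had estimates below the median of all genes, at -0.49, -0.10 and -0.23 relative to it, and 0 of 6 passed both thresholds. Trophectoderm markers summed to 3123 to 4734 and 3075 to 4826 FPKM, most of it from Krt8 and Krt18. As deposited 1 of 7, Elf5, was higher at an unadjusted p of at most 0.05, and none was without overlap. The other 6 had estimates below the median of all genes. With median-of-ratios and with upper quartile scaling 0 were higher and 1 was lower at that level, against 6.42% and 6.68% of all tested genes lower. Primitive endoderm markers summed to 135 to 262 and 180 to 236 FPKM, most of it from Dab2, while Gata4 and Sox7 were above all controls and Gata4 and Sox17 were higher at an unadjusted p of at most 0.05. Gata6, Dab2 and Pdgfra had estimates below the median of all genes, at -0.36, -0.43 and -0.10 relative to it. With median-of-ratios scaling 1 of the 6 was higher at that level, and with upper quartile scaling 2 were. Oocyte markers, 2 of 7 tested, summed to 3.92 to 7.04 FPKM in oEV-EMT and 2.42 to 3.35 FPKM in oEV-ctrl, and 1 of them, Zp3, was above all controls (log2 fold change 0.79, limma adjusted p = 0.174). The part of these differences in the values of the 7 genes was not tested, and in pooled blastocysts fewer cells of a type and less RNA per cell cannot be told apart.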

How the data were processed

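RNA was sequenced from 6 pools of blastocysts after polyA selection. The authors assembled transcripts with StringTie on mm10, per the submitters' processing notes, and deposited 1 value per gene and library. The aligner is not given in the sources used here. The methods name TPM, but the deposited values summed to 1293175 to 1551567 per library and were therefore treated as FPKM. Of 55774 rows, 55487 carried Ensembl identifiers, of which 55141 matched GENCODE M21 (GRCm38), and 287 were unannotated.

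Genes reaching 1 FPKM in 3 or more libraries were kept. Their log2(FPKM + 1) values entered limma 3.58.1 (R 4.3.3) with trended and robust variance and Benjamini-Hochberg adjustment. The study's thresholds were used, an adjusted p of at most 0.05 and a log2 fold change of 1 or more in either direction. Its test, DESeq2, was not, so numbers of genes past these thresholds are not comparable with the study's. The procedure was tested on simulated data, the outcome of which is not given here. Relative depth came from ratios of low FPKM between libraries.

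Shared sequence was sought as identical 50-base stretches of GENCODE transcripts, and rows were summed where 10% or more of the stretches of either partner were common to both. Promoters were taken from RefSeq (GRCm38.p6). Sequences were compared with Biopython 1.88 and figures drawn with matplotlib 3.10.9 in Python 3.11.15.

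The 7 genes and all lists were chosen with earlier results of these data known. Besides the 7 genes, the text names Dhcr7, Srebf2, Insig1, Npc1, Abca1 and Scd2, up to 4 further genes of each pathway list with the smallest unadjusted p of at most 0.05, the 5 genes with the most similar profile, and rows overlapping or copying one of the 7. Marker genes were named after their values were seen. Alternatives covered scaling, filter, pseudocount, variance model, replicate block, summed rows and leaving out each library. A transcript length offset (loess, span 0.5) and library quality weights were chosen after seeing the data. Some genes of the lists are counted but not reported here by name.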

Additional observations from a re-analysis of the deposited data

How the results depend on the processing

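None of the 7 genes passed both thresholds under any alternative. Estimates of Hmgcs1 (-1.39 to -0.36), Sqle (-0.50 to -0.13), Cyp51 (-0.43 to -0.11) and Lss (0.05 to 0.41) kept their sign, the lowest adjusted p, 0.0691, being that of Hmgcs1 with library quality weights. Leaving out 1 library, the median of the 7 was -0.39 to 0.11, and -0.54 to -0.11 relative to all genes, with the highest value of each without oEV-ctrl 3. Idi1, Fdps and Fdft1 changed sign. Idi1 was 0.069 scaled to a sum of 1000000 and 0.085 summed over shared rows, and -0.39 to 0.30 leaving out 1 library. Fdps was -0.19 with median-of-ratios scaling, -0.21 with upper quartile scaling, -0.19 with the length offset, -0.017 summed, -0.17 after subtracting the median over all genes and -0.15 to 0.16 leaving out 1 library. Fdft1 was 0.0083 with quality weights, 0.34 summed (a sum of which Ctsb makes up most of the rest, so no estimate for Fdft1 alone), and -0.48 to 0.25 leaving out 1 library. Genes without overlap between groups numbered 2 of 7 under median-of-ratios and upper quartile scaling, against 10.2% and 10.7% of all tested genes with oEV-EMT below. They numbered 1 with the length offset and 0 to 2 leaving out 1 library (2 without oEV-ctrl 1 or without oEV-EMT 1). For these settings no share over all tested genes was taken, and groups separate more readily with 1 library fewer. As deposited the share was 22.4% in either direction, so no gain can be read from these counts. Over all genes, those past both thresholds numbered 104 with quality weights and 0 to 17 leaving out 1 library, 17 being without oEV-ctrl 3, and those at an unadjusted p of at most 0.05 numbered 2789 and 1174 to 2182. The cause was not tested. Read totals are unknown, so no counting error could be given.

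Replicate numbers were checked for pairing by the correlation of deviations from the group means, which was 0.119, -0.04 and 0.04 for same-numbered libraries, and not every library correlated best with its own number. With a replicate block 21 genes passed both thresholds, none of them among the 7, whose smallest adjusted p was 0.429.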

Other observations

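Of the genes in the pathway lists, 20 fell below the filter for testing. In 4 of them, Lrp1, Gramd1a, Acacb and Fads2, every oEV-EMT value exceeded every control, and in 1, Abca1, every oEV-EMT value was lower. Over all 19918 rows below the filter with any value above 0, the shares above and below were 5.37% and 2.96%. Rows above 0 in only 1 library count there too, and such rows cannot separate. Of all tested genes, 18.1% were above and 4.34% below without overlap, so no excess can be read from these counts. Lrp1, Gramd1a, Acacb and Fads2 were named after their values were seen. Abca1 and Scd2 are given here without a test. Abca1, the transporter that exports cholesterol to lipoproteins, had 0.641, 0.614 and 0.433 FPKM in oEV-EMT 1, 2 and 3. In oEV-ctrl 1, 2 and 3 it had 1.05, 0.955 and 1.12 FPKM, so the groups did not overlap, with oEV-EMT lower, at a level of about 1 FPKM or less. Scd2, a stearoyl-CoA desaturase that makes unsaturated fatty acids and is a known target of SREBP, had 0.544, 0.450 and 0.310 FPKM in oEV-EMT 1, 2 and 3. In oEV-ctrl 1 it had 0.124 FPKM, whereas it reached 15.8 FPKM in oEV-ctrl 2 and 16.8 FPKM in oEV-ctrl 3. The control libraries thus differed among themselves by far more than oEV-ctrl 1 differed from the oEV-EMT libraries. Library oEV-ctrl 1, the shallowest, was also the lowest control for each of the 7 synthesis genes, for which it lay less far below the others. The share of all tested genes with oEV-ctrl 1 as the lowest control is not given here. With oEV-ctrl 3 as the highest control besides, it was 25.4% of all tested genes. Whether depth has a part in this was not tested.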
